A study of Mus musculus with 2 samples.

Results

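The genes described here are the immunoglobulin (Ig) constant genes of the mouse, which encode the part of an antibody that sets its class. The 10 members, of 33696 genes counted, were chosen by symbol as Ighm, Ighd, Ighg1, Ighg2b, Ighg2c, Ighg3, Igha, Igkc, Iglc1 and Iglc2. They were chosen with their levels in these libraries known, so the levels below are a description. Abdominal aortas of male C57BL/6J mice aged 5 months were profiled on day 28 by droplet-based single-cell RNA sequencing. The Control mice had received saline. The AngII+HS mice, a model of abdominal aortic aneurysm, drank water with 0.9% NaCl and 0.2% KCl and were infused with angiotensin II (1500 ng/kg/min). Each condition is 1 library. The design in the labels states that tissue of 5 mice was pooled for each, whereas the extraction protocol names fewer animals, so 1 mouse cannot be told from another and no test between conditions was possible.

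A B cell makes its receptor from a heavy chain and a light chain, each joined from a variable part, which binds the antigen, and a constant part. Naive B cells carry Ighm and Ighd on the same transcript unit, and class switching joins the variable part to Ighg, Igha or Ighe instead. Plasma cells are B cells turned into antibody factories that secrete large amounts of 1 class with 1 type of light chain, kappa (Igkc) or lambda (Iglc1, Iglc2). In arteries, B cells and plasma cells gather in the adventitia, mostly during inflammation.

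The members lie at 3 loci of GRCm39. The heavy-chain genes stand on the minus strand of chromosome 12, from Ighm at chr12:113382178-113386350 through Ighd (chr12:113370224-113379944), Ighg3 (chr12:113319844-113324852), Ighg1 (chr12:113288860-113294143), Ighg2b (chr12:113266585-113271553) and Ighg2c (chr12:113248945-113252552) to Igha at chr12:113218450-113223856. Igkc is a single exon at chr6:70703419-70703950 on the plus strand. Iglc2 (chr16:19017146-19019101) and Iglc1 (chr16:18880368-18880821) are on the minus strand of chromosome 16, with Iglc3, which is no member, at chr16:18883980-18884431.

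How alike these genes are bears on every count below, because a read can name a class only by bases in which the genes differ. The last 90 coding bases of the secreted form of the 4 gamma genes, read from GRCm39 5′ to 3′ along the gene, are shown with capitals where a gene differs from Ighg2c.
Ighg2c (chr12:113251012-113251101, minus strand): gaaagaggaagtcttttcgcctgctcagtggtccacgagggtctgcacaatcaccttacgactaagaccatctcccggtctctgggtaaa
Ighg2b (chr12:113270012-113270101, minus strand): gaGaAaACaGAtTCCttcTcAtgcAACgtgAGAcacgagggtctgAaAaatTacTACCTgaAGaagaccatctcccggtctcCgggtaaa
Ighg1 (chr12:113292599-113292688, minus strand): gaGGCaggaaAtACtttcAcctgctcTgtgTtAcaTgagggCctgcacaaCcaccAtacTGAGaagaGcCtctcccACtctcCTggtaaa
Ighg3 (chr12:113323288-113323377, minus strand): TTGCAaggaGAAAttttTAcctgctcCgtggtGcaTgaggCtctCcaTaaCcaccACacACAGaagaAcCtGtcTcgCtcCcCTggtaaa
Against Ighg2c, the stretch differed at 28 bases in Ighg2b, 24 in Ighg1 and 32 in Ighg3. Over the exons of each gene, the longest run shared without a difference was 88 bases for Ighg2b with Ighg3, 78 bases for Ighg2c with Ighg2b and 59 bases for Ighg1 with Ighg3. For Ighm, Ighd, Igha and Igkc it was at most 15 bases. The lambda genes are shown the same way, with capitals where a gene differs from Iglc2.
Iglc2 (chr16:19017289-19017378, minus strand): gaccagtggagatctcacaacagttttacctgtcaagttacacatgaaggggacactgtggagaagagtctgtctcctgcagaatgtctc
Iglc3 (chr16:18884118-18884207, minus strand): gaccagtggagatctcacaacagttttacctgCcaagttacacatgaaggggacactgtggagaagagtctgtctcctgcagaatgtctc
Iglc1 (chr16:18880505-18880594, minus strand): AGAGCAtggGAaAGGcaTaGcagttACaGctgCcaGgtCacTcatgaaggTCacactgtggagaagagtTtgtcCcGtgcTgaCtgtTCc
Iglc3 differed from Iglc2 at 1 base and Iglc1 differed at 29, and Iglc2 and Iglc3 shared a run of 79 bases. Over the exons, 0 of the 522 stretches of 90 bases in Iglc2 and 0 of the 363 in Iglc3 were shared whole with another of these genes. A read of that length can thus tell Iglc2 from Iglc3, but in the stretch shown by 1 base alone. Their counts are therefore less certain against each other than against Iglc1.

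The Control library held 11448 barcodes and 86618995 UMIs (unique molecular identifiers, each standing for 1 captured RNA molecule), and the AngII+HS library 24804 barcodes and 117146856 UMIs. After the cell filter and doublet removal, 10269 and 19734 cells remained, with medians of 7274 and 3066 UMIs. The barcode list recorded with each library had the length of the other library's matrix and was not used, and the 2 lists share 67 barcodes. Cells were clustered without any Ig gene, and a cluster was named for the marker list it matched best, so that B cell and plasma cell mean B cell-like and plasma cell-like clusters. B cells numbered 99 in the Control library (0.964% of its cells) and 995 in the AngII+HS library (5.04%), and all 8 of their markers were detected. Plasma cells numbered 1 and 113. Levels are given in CPM, the UMIs of a gene divided by all UMIs of the same cells on the usual counts-per-million scale, and intervals are 95% exact intervals that cover counting error only.

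All 10 members stood higher in the AngII+HS library over all cells. Igkc, the kappa constant gene, was at 13.3 CPM in the Control library and at 5692 CPM in the AngII+HS library, a log2 ratio of 8.75 (8.66 to 8.84). Igha, the constant gene of IgA, was at 0.412 and 653 CPM. Ighg2c, the constant gene of IgG2c, was at 0 in the Control library and at 814 CPM in the AngII+HS library, which is at least 20442-fold higher on a floor of 3 UMIs. Among the kept cells, the genes of unswitched B cells differed least, with log2 ratios of 3.34 for Ighm (3.23 to 3.46) and 3.12 for Ighd (2.86 to 3.39). Ighg1 and Ighg3 were also at 0 in the Control library. All 10 members were past a log2 ratio of 1 upward, where 20.8% of the 20363 genes with at least 20 UMIs were past it upward and 11.5% downward, and the median log2 ratio of all genes was 0.06.

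Doublet removal weighed heavily on these ratios. In the Control library 5 barcodes held at least 100 UMIs of the members, and 4 of them were left out as doublets. The 4 carried 80.1% of all member UMIs in the library. The highest had 941 Ighg2b and 4724 Igkc UMIs among 18490 UMIs in all. The other 3 had 433, 167 and 134 Igha UMIs, with 942, 683 and 676 Igkc UMIs, and each of the 4 also held Jchain and Mzb1 UMIs. So classes G2b and A were present among the Control barcodes, in barcodes with 3394 to 4348 genes each, and the kept Control cells do not include them. In the AngII+HS library, 246 barcodes held at least 100 member UMIs, of which 157 were kept, 88 were left out as doublets and 1 by the filter. Over all deposited barcodes the log2 ratio was 6.01 for Igkc (5.98 to 6.05), 3.86 for Ighg2b (3.76 to 3.95) and 4.30 for Ighm (4.19 to 4.40), and Igha was 63.9-fold higher. Each of these still pointed upward, and Ighg1, Ighg2c and Ighg3 stayed at 0 in the Control library. The order of the members changed, however. Ighd still had the lowest log2 ratio (2.90), but Ighg2b and Iglc2 (3.88) then differed less than Ighm.

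In the AngII+HS library, the 113 plasma cells made up 0.573% of the cells and held 78.6% of its member UMIs. B cells held 18806 of its 627187 member UMIs. In the Control library B cells held 79.5%, and the 1 plasma cell, with 516 UMIs in all, had 2 Ighm UMIs and no light chain.

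**Figure D1:**
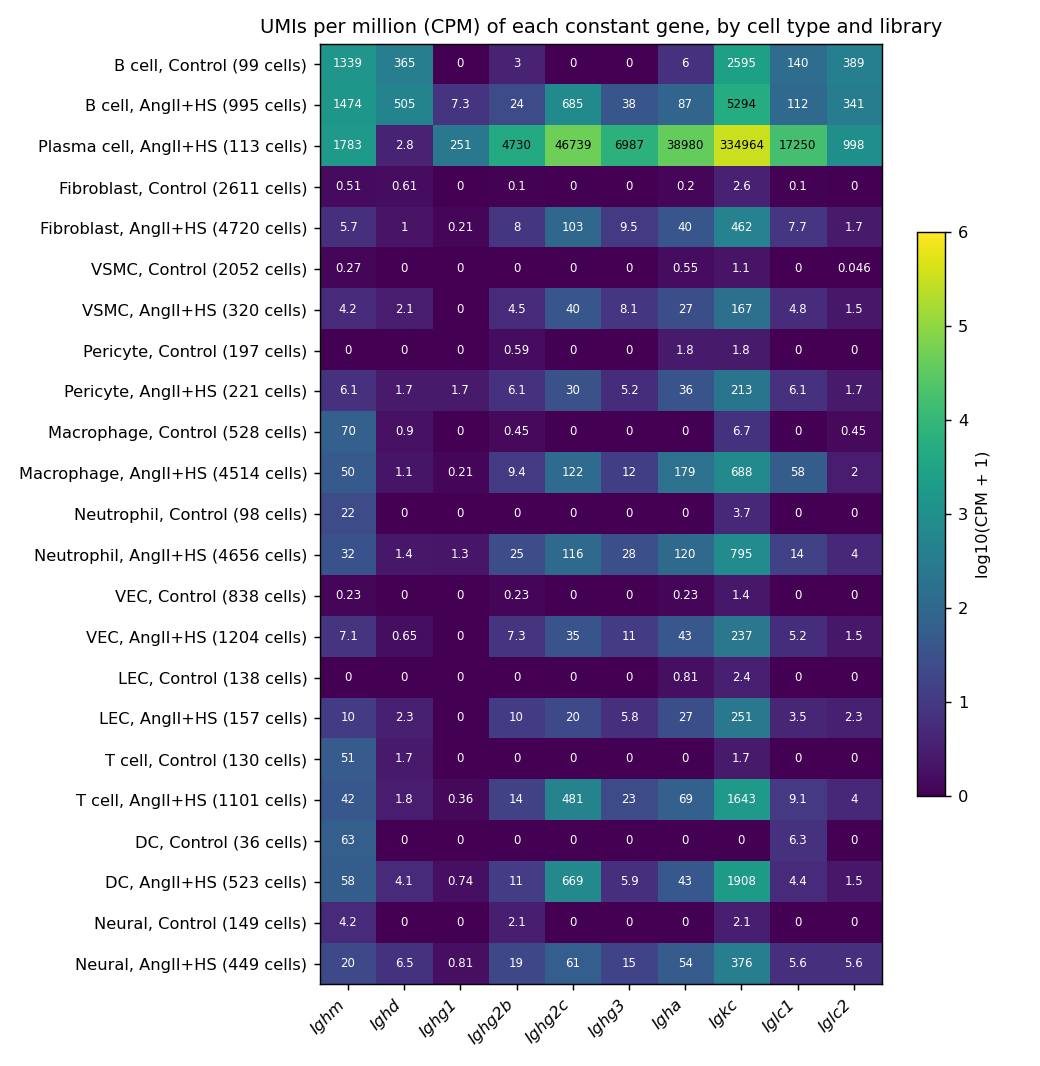
Level of each member in CPM (number in each cell, color on a log10 scale after adding 1 CPM) by cell type and library, with the number of cells of each. Plasma cells of the AngII+HS library hold the highest Igkc level, 334964 CPM, and Ighg1, Ighg2c and Ighg3 are at 0 in every Control row.

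To find the class used by each plasma cell, a cell was called for 1 heavy-chain class when it held at least 5 heavy-chain UMIs with at least 75% of them in 1 class. Of the 113 plasma cells, 111 were called. IgA and IgG2c were equally frequent, with 48 cells of class A and 48 of class G2c, each 43.2% of the called cells (33.9 to 53.0). Fewer cells were of the other classes: 7 cells were G3 (6.31%, 2.57 to 12.6), 5 were G2b (4.50%, 1.48 to 10.2), 2 were M/D (1.80%) and 1 was G1 (0.901%). The M/D share depended on the clustering, at 10.3% when the Ig genes took part in it and 12.9% without doublet removal. The second share is over a larger set, the called cells among 456 named plasma cells. In the cluster of that setting that held 112 of the 113 cells, M/D was 6.86%. Doublet removal also weighed unevenly on the other classes. Among AngII+HS barcodes with at least 100 member UMIs, 5 of class G2b were kept and 14 left out as doublets. For G3 these counts were 12 and 12, for A 62 and 24, and for G2c 62 and 25. Ighe, the constant gene of IgE, had no UMI in plasma cells.

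The calls were unambiguous in most cells. The called class held a median of 99.9% of the heavy-chain UMIs of a cell and at least 92.0%, and 95 of the 111 cells had at least 99% in 1 class. Heavy-chain UMIs per cell ranged from 67 to 2493 with a median of 938. A single cell was mixed, with 952 Ighg3 and 727 Igha UMIs among 23755 UMIs in all, a depth above that of every called plasma cell. The remaining cell held no UMI of any member, of Jchain or of Mzb1.

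**Figure D2:**
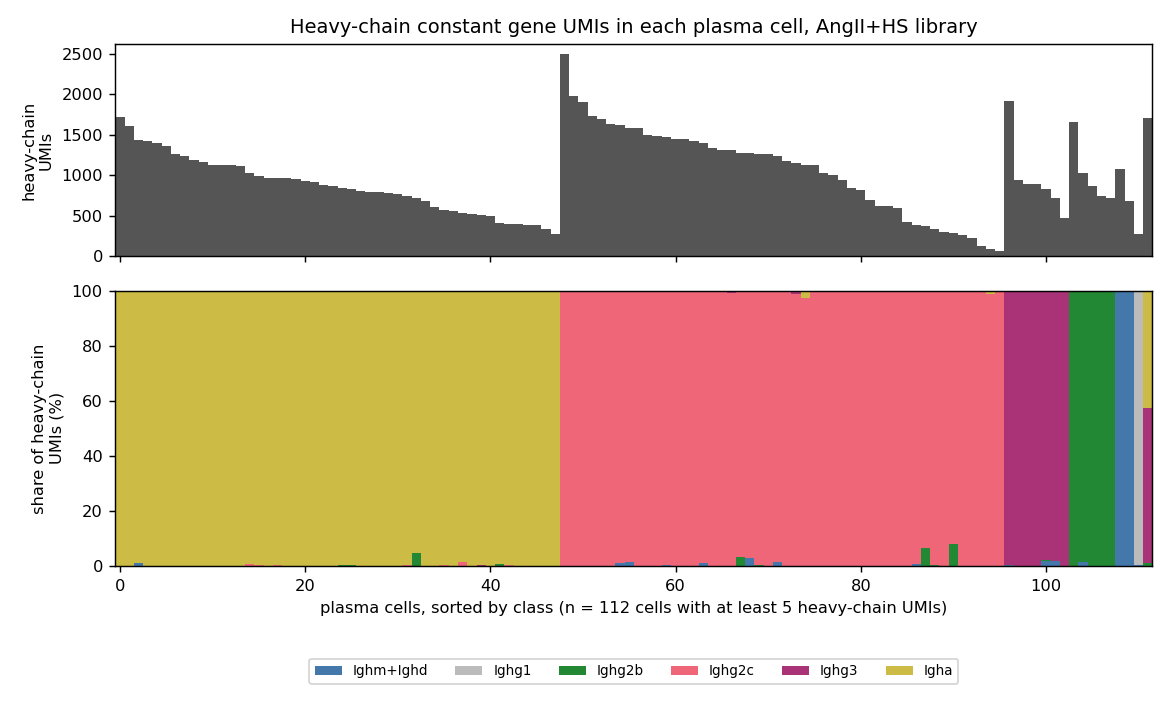
Heavy-chain UMIs of each plasma cell of the AngII+HS library (upper panel) and the percent of them in each class (lower panel), with cells sorted by class and then by UMIs. 1 class fills nearly the whole bar in all but the last cell, which is split between Ighg3 and Igha.

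Antibody genes took a large part of the RNA molecules of a plasma cell. The members made up a median of 48.0% of the UMIs of a called plasma cell, with a range of 8.90% to 68.4%. The medians were 48.6% in class A and 48.6% in class G2c, the same value in both large classes. Class G2c cells held a median of 1206.5 heavy-chain UMIs against 849 in class A, from a median depth of 11527 against 8940 UMIs. The median cell held 3.31 light-chain UMIs per heavy-chain UMI in class G2c and 3.28 in class A.

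Kappa was the common light chain. With the same rule of 5 UMIs and 75%, 103 of 112 plasma cells were kappa (92.0%, 85.3 to 96.3) and 9 were lambda (8.04%, 3.74 to 14.7). The 9 lambda cells showed 3 patterns, a different one in each heavy-chain class. The 4 lambda cells of class A held 1330 to 2652 Iglc1 UMIs with at most 1 Iglc2 and 2 Iglc3 UMIs. The 4 of class G2c held both Iglc1 (515 to 3111 UMIs) and Iglc3 (434 to 1901 UMIs), with at most 21 Iglc2 UMIs. The last, of class G3, held 424 Iglc1 and 477 Iglc2 UMIs, with 2 Iglc3 UMIs. Iglc2 was thus a main light chain in 1 plasma cell, and over all plasma cells it stood at 998 CPM against 17250 CPM for Iglc1 and 5854 CPM for Iglc3.

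Jchain encodes the joining chain that links IgA and IgM units into polymers, and it is not a member. It separated the classes. Class A cells held a median of 47402 CPM of Jchain, from 16761 to 89238 CPM, and class G2c cells a median of 8870 CPM, from 1355 to 26383 CPM, so the ranges overlapped while the medians lay far apart. Summed over cells, the level was 47917 CPM in class A (47252 to 48589) and 11091 CPM in class G2c (10803 to 11386), a log2 ratio of 2.11 (2.07 to 2.15). The 2 cells of class M/D stood at 26249 and 28316 CPM. Levels were 8750 CPM in class G2b and 3595 CPM in class G3, both below class A.

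**Figure D3:**
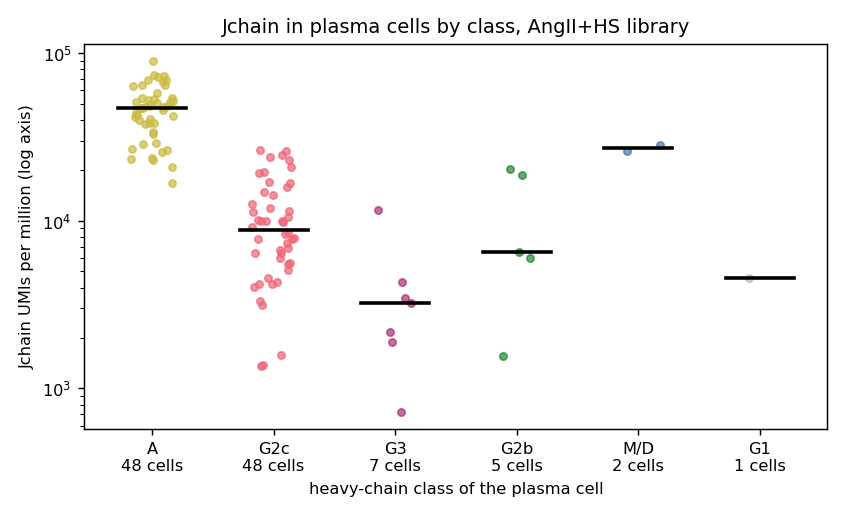
Jchain level of each called plasma cell of the AngII+HS library in CPM on a log axis, by heavy-chain class, with a bar at the median of each class. Class A cells lie between 16761 and 89238 CPM, above most cells of class G2c.

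Other genes also differed between the 2 large classes. Named here, by a rule of size, are the 5 non-Ig genes at either end of the ratio among those with at least 200 UMIs in both classes together. Higher in class A were Glipr1 (log2 ratio 1.87), Cd52, a surface glycoprotein of lymphocytes (1.83), Crip1 (1.73), the transcription factor Tcf4 (1.17) and Txndc5, a disulfide isomerase of the endoplasmic reticulum (1.03). Higher in class G2c were Slpi, a secreted inhibitor of serine proteases (-3.65), Ly6c2, a surface protein of the Ly6 family (-2.96), Cd274, which encodes PD-L1 (-1.27), the adhesion protein Epcam (-0.89) and Cpeb3 (-0.78). Slpi was the extreme case, at 3820 CPM in class A and 47967 CPM in class G2c. It was found in 81.25% of class A cells and 100% of class G2c cells. Ly6c2 was at 387 and 3005 CPM. Over the 3470 non-Ig genes with at least 20 UMIs, 8.27% were past a log2 ratio of 1 toward class A and 2.94% toward class G2c, with a median of 0.19. The cells of each class come from 1 pool of mice, and whether the classes differ in their mice cannot be told apart.

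Of the 18 genes of a list for the plasma cell programme, 2 were past a log2 ratio of 1 toward class A and none toward class G2c, counts near those of all genes (8.27% and 2.94%). The first was Tnfrsf17, the survival receptor BCMA, at 116 CPM in class A and 17.8 CPM in class G2c, and the second was the costimulatory receptor Cd28 at 169 and 53.5 CPM. The transcription factor Xbp1, which drives secretion, was at 1220 and 1352 CPM, and the folding chaperone Mzb1 was at 2948 and 2315 CPM. The lower Mzb1 level of class G2c lay in its cells with 1 pair of variable genes, described below.

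The variable genes read in the same cells told how far the plasma cells were repeats of each other. A cell was given a heavy or kappa variable gene when that gene had at least 3 UMIs and at least 50% of the variable UMIs of its chain, a rule chosen after the data were seen. Both could be named in 86 of the 111 called cells, which held 54 different pairs. Class A was diverse, with 31 pairs in 37 cells. Its most frequent pair, Ighv5-16 with Igkv4-68, was in 4 cells (10.8%, 3.03 to 25.4). Class G2c was not, since Ighv1-80 with Igkv4-57 was in 18 of its 37 cells (48.6%, 31.9 to 65.6), and the other 19 cells held 16 pairs. Among the called plasma cells, this pair was found in class G2c alone. A shared pair of genes is not a shared sequence, which these counts cannot show.

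The 18 cells with the most frequent pair differed from the other 30 cells of the class in part of the plasma cell list. A pair was named in 37 of the 48 cells of class G2c. The other 30 thus mix cells with another pair and cells whose pair is not known. Hspa5 (BiP) was at 334 CPM (258 to 427) against 1552 CPM (1417 to 1696), and Hsp90b1 (GRP94) was at 784 CPM against 3142 CPM. Mzb1 was at 1280 against 2948 CPM. Class A, at 3098 CPM for Hsp90b1 and 2948 CPM for Mzb1, stood near the other 30 cells in both genes. Xbp1, at 1567 against 1220 CPM, was not lower, and outside the list Txndc5 was higher in the cells with the pair, at 1108 against 492 CPM. Of 17 genes of the plasma cell list with at least 20 UMIs, 7 were past a log2 ratio of 1 downward and none upward, with a median of -0.62. Over all 1958 non-Ig genes, 7.76% were past it downward and 4.70% upward, with a median of -0.00. Slpi was high in both groups of cells, at 53156 and 44796 CPM, and Jchain was at 8480 and 12688 CPM.

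B cells were almost all of the unswitched class. Of the 99 Control B cells, 44 were called and 44 were M/D, so that the exact interval of the switched share runs from 0 to 8.04%, and 55 had fewer than 5 heavy-chain UMIs. Of the 995 AngII+HS B cells, 386 were called, of which 378 were M/D (97.9%, 96.0 to 99.1), while 31 were mixed and 578 had too few UMIs. The 8 switched cells (2.07%, 0.899 to 4.04) were 3 G3, 2 G2c, 1 G1, 1 G2b and 1 A. Of the 2 G2c cells, 1 held 4454 member UMIs among 8813 UMIs in all, with the pair Ighv1-80 and Igkv4-57. It was the only B cell with at least 100 heavy-chain UMIs, and whether it is a plasma cell or 2 cells was not tested. No AngII+HS B cell held more than 13 Ighg3, 10 Igha, 5 Ighg1 or 5 Ighg2b UMIs. A difference in the share of switched cells was thus not detectable between the libraries at this depth.

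Ighd stood higher in the AngII+HS B cells, relative to all UMIs. Ighm was at 1339 CPM (1218 to 1469) in Control and 1474 CPM (1423 to 1525) in AngII+HS, and Ighd was at 365 CPM (303 to 435) and 505 CPM (476 to 536). There were 3.67 Ighm UMIs per Ighd UMI in Control and 2.92 in AngII+HS, a contrast for which no interval was computed. In Control, 1 B cell alone held 46 of the 448 Ighm UMIs. Both genes had a UMI in 53 of 99 and 509 of 995 cells. With each cell thinned to 1000 UMIs the share with both was 15.5% and 29.6%, so the share was higher in AngII+HS after thinning and not before it. The thinned share with an Ighm UMI was 54.6% and 68.1%, and that with an Ighd UMI 23.7% and 38.7%. Both genes were thus found in more AngII+HS cells after thinning. Control B cells were the deeper ones, with a median of 2997 UMIs against 1984.

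Kappa also led in B cells, with 55 of 58 called cells in Control (94.8%, 85.6 to 98.9) and 662 of 671 in AngII+HS (98.7%, 97.5 to 99.4). These shares leave out 13 Control and 62 AngII+HS cells that were mixed, and 28 and 262 with too few light-chain UMIs. Iglc3 was not counted as lambda in the call. A light-chain gene of the other kind was often seen beside kappa. Of the kappa B cells, 40.0% and 38.5% held an Iglc2 UMI, and 10.9% and 12.2% an Iglc1 UMI. In macrophages, which make no antibody, an Iglc2 UMI was found in 0.731% of AngII+HS cells (median 3983 UMIs) and 0.189% of Control cells (median 3942 UMIs). After thinning to 1000 UMIs, 23.7% of B cells in either library and 0.163% of AngII+HS macrophages held one. In B cells Iglc2 was at 389 CPM in Control and 341 CPM in AngII+HS, above Iglc1 at 140 and 112 CPM, the opposite order to plasma cells. Iglc3 was at 71.7 and 143 CPM.

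Among B cells, 5 of the 9 members with at least 20 UMIs were past a log2 ratio of 1 upward in AngII+HS and none downward, where 12.2% of 8770 genes were past it upward and 4.25% downward. These 5 were Igkc, Ighg2b, Ighg2c, Ighg3 and Igha. Igkc went from 2595 to 5294 CPM, but 1 cell alone held 3095 Igkc and 1342 Ighg2c UMIs. Without the B cells that held at least 100 member UMIs, 1 in Control and 6 in AngII+HS, Igkc was at 2519 and 3748 CPM, a log2 ratio of 0.57, and Ighg2c fell to 75.1 CPM in AngII+HS. The remaining Ighg2c level lies within the range of 17.7 to 98.4 CPM found in cell types that make no antibody, and Igha, at 87.2 CPM, lies within their range of 24.8 to 106 CPM. Ighg2b, at 22.8 CPM, lies within their range of 4.59 to 25.04 CPM. Ighg3, at 35.4 CPM (27.9 to 44.3), lies above their range of 1.18 to 19.5 CPM. These ranges cover cells with under 10 member UMIs, so the filters differ. In the 360 AngII+HS B cells with under 10 member UMIs, Ighg3 was at 14.6 CPM, within its range. Ighg2c, Igha and Ighg2b were within theirs there too, at 55.2, 82.7 and 16.2 CPM. Over all B cells, Ighm, Ighd, Iglc1 and Iglc2 had log2 ratios of 0.14 (-0.00 to 0.28), 0.47 (0.20 to 0.75), -0.33 (-0.79 to 0.15) and -0.19 (-0.46 to 0.09).

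**Figure D4:**
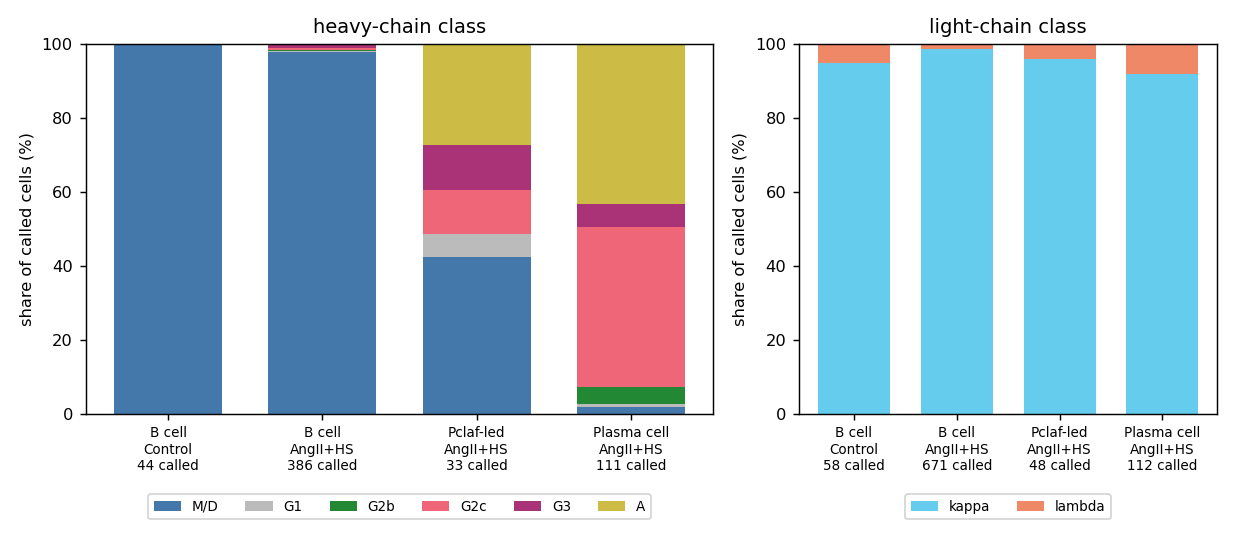
Share of called cells by heavy-chain class (left) and light-chain class (right) in B cells of both libraries, a cycling cluster led by Pclaf and plasma cells, in percent, with the number of called cells below each bar. M/D fills 100% and 97.9% of the B cell bars, while A and G2c each fill 43.2% of the plasma cell bar.

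Antibody genes were also found in a cluster led by Pclaf, a gene of DNA replication. It stayed unnamed, since no B cell marker was among its 10 leading genes while the plasma cell marker Mzb1 was. It held 8 Control and 152 AngII+HS cells. Cycling genes marked it, with Top2a at 600 CPM and Mki67 at 430 CPM against 12.3 and 4.56 CPM in AngII+HS B cells. In AngII+HS, 33 of its cells were called, 14 as M/D (42.4%, 25.5 to 60.8), 9 as A (27.3%), 4 as G2c, 4 as G3 and 2 as G1, while 10 were mixed and 109 had too few heavy-chain UMIs. So its called cells held unswitched and switched classes side by side. Jchain was at 5049 CPM and Mzb1 at 3277 CPM in these 33 cells. Kappa was called in 46 of its 48 cells with a light-chain class. None of the 8 Control cells reached 5 UMIs of either chain.

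The change of gene use from B cell to plasma cell went beyond the constant genes. In the AngII+HS library, 12 of the 13 genes of the B cell receptor complex and its co-receptors were past a log2 ratio of 1 downward in plasma cells, where 59.9% of all 9157 genes were, with a median of -3.16 against -1.29 over all genes. Cd79a, a signaling chain that carries surface Ig, was at 1057 CPM in B cells and 291 CPM in plasma cells. The exception was the membrane protein Cd81, at 114 and 185 CPM. Of the 18 plasma cell genes, 15 were past it upward, where 5.13% of all genes were, with a median of 3.41. Plasma cell markers helped to name these clusters, so part of this list was used to form the comparison. The members were at 452685 CPM in plasma cells and 8568 CPM in B cells, so that other genes share a smaller part of the total in plasma cells. Of 18 genes of B cell subsets, 3 were past it upward and 11 downward, and of 9 genes of class switching 1 was past it upward and 8 downward. The downward count of the subset list lay near the 59.9% of all genes. That list also includes Ighd, which is itself a member.

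The companion lists were also compared between the libraries in B cells. None of the 13 receptor genes was past a log2 ratio of 1, with a median of 0.19. Among the 18 plasma cell genes, 12 had at least 20 UMIs, of which 1 was past it upward and 1 downward. Of 17 genes of B cell subsets, 1 was up and 1 down, and of 9 genes of class switching, 1 was up and 1 down. In the shorter lists, 1 of 4 Fc receptor and Ig transport genes and 1 of 3 other Ig rows were up, and 1 of 2 proliferation genes was down. Over the 8754 non-Ig genes, 9.81% were up and 4.76% down, so the counts of the longer lists lie near the background. Fcmr, the Fc receptor for IgM, was at 150 CPM in Control and 197 CPM in AngII+HS B cells and had no UMI in plasma cells.

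Outside B cells and plasma cells, UMIs of the members were found in every named cell type of both libraries, with 331 UMIs in 6777 Control cells and 64626 UMIs in 17865 AngII+HS cells. In droplet data such UMIs can come from free RNA, and their source was not tested. To leave out cells with much antibody RNA, levels are given over cells with under 10 UMIs of the members, in 10 named cell types. These were fibroblasts, vascular smooth muscle cells (VSMCs), pericytes, macrophages, neutrophils, vascular and lymphatic endothelial cells (VECs and LECs), T cells, dendritic cells (DCs) and neural cells. In AngII+HS, Igkc ranged from 135 CPM in VSMCs to 689 CPM in neutrophils, with a median of 231 CPM. In Control it ranged from 0 in DCs to 6.73 CPM in macrophages. Igha ranged from 24.8 to 106 CPM and Ighg2c from 17.7 to 98.4 CPM in AngII+HS. Neutrophils, which had the lowest median depth (1266 UMIs per cell), stood highest in each of these.

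In the AngII+HS library the mix of members in these types was compared with that of plasma cells and B cells. Igkc took 61.2% to 75.4% of the member UMIs of a type, against 74.0% in plasma cells. Ighg2c took 6.05% to 12.1%, against 10.3% in plasma cells, and Igha took 8.47% to 13.3%, against 8.61%. The Ighg2c share of plasma cells lay within the range over the other types. Their Igkc and Igha shares lay within it only through LECs, which held 248 member UMIs, 75.4% Igkc and 8.47% Igha. In every other of these types Igkc took at most 69.5%, below plasma cells, and Igha at least 10.4%, above them. Ighg2b and Iglc1 lay outside the range in the kept plasma cells. Ighg2b took 2.01% to 3.74%, against 1.04% in plasma cells, and Iglc1 took 0.806% to 2.41%, against 3.81%. Doublet removal bears on both. Among AngII+HS barcodes with at least 100 member UMIs, 14 of class G2b were left out as doublets and 5 kept. The kept plasma cells held 5154 Ighg2b and 18797 Iglc1 UMIs, and all deposited AngII+HS barcodes 18710 and 22735. The mix with the doublets put back was not compared. Ighg3 took 0.403% to 3.02%, against 1.54%, and Ighm 1.51% to 14.2%, against 0.394%. B cells with under 10 member UMIs held 55.5% Igkc and 2.38% Igha, both below every other type. In the Control library, with 331 member UMIs over these types, Igkc ranged from 0% to 75% of the member UMIs of a type and Igha from 0% to 42.9%.

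Single cells with much antibody RNA lifted the mean of some types. In AngII+HS, 10 macrophages, 2 T cells, 1 DC, 1 fibroblast, 1 neutrophil and 1 VSMC held at least 100 member UMIs. Ighg2c in DCs was at 669 CPM over all cells and 31.4 CPM over those with under 10 member UMIs, and in T cells it was at 481 and 54.5 CPM. The most frequent pair of class G2c, Ighv1-80 with Igkv4-57, was also read in 1 cell each among these DCs, fibroblasts, macrophages and T cells and in 1 B cell. Whether such barcodes hold 2 cells was not tested beyond the doublet score.

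The Ighm level in CPM was higher in leukocytes than in the other cells. In cells with under 10 member UMIs of the Control library, where Igkc was near 0, Ighm was at 70.0 CPM in macrophages, 62.9 CPM in DCs, 50.5 CPM in T cells and 22.1 CPM in neutrophils, but at 0.511 CPM in fibroblasts, 0.274 CPM in VSMCs, 0.231 CPM in VECs, 4.25 CPM in neural cells and 0 in LECs and pericytes. The Control values rest on 6 Ighm UMIs in neutrophils and 10 in DCs. In AngII+HS Ighm was at 44.9 CPM in macrophages, 55.7 CPM in DCs, 40.9 CPM in T cells and 32.0 CPM in neutrophils. It was at 3.06 to 10.7 CPM in the 6 other types. As a share of member UMIs, Ighm in AngII+HS neutrophils (3.23%) was not above that in LECs (3.63%). This share was 6.54% in T cells, 9.68% in macrophages and 14.2% in DCs. Over all cells, the counting interval was 59.5 to 81.9 CPM in Control macrophages (156 UMIs) and 0.00585 to 1.29 CPM in Control VECs (1 UMI).

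An Ighm UMI was found in 22.0% of Control macrophages (median 3942 UMIs per cell) and in 0.119% of Control VECs (median 4267 UMIs). With cells thinned to 1000 UMIs, the shares were 7.04% and 0%. In Control T cells the share was 18.5%, and 4.65% when thinned. Control macrophages and T cells therefore differed from Control VECs in Ighm at about the same depth. Igkc was at 6.73 CPM in these macrophages and 1.68 CPM in these T cells. Control macrophages held 156 Ighm and 15 Igkc UMIs, whereas Control B cells held 51.6 Ighm UMIs per 100 Igkc UMIs.

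**Figure D5:**
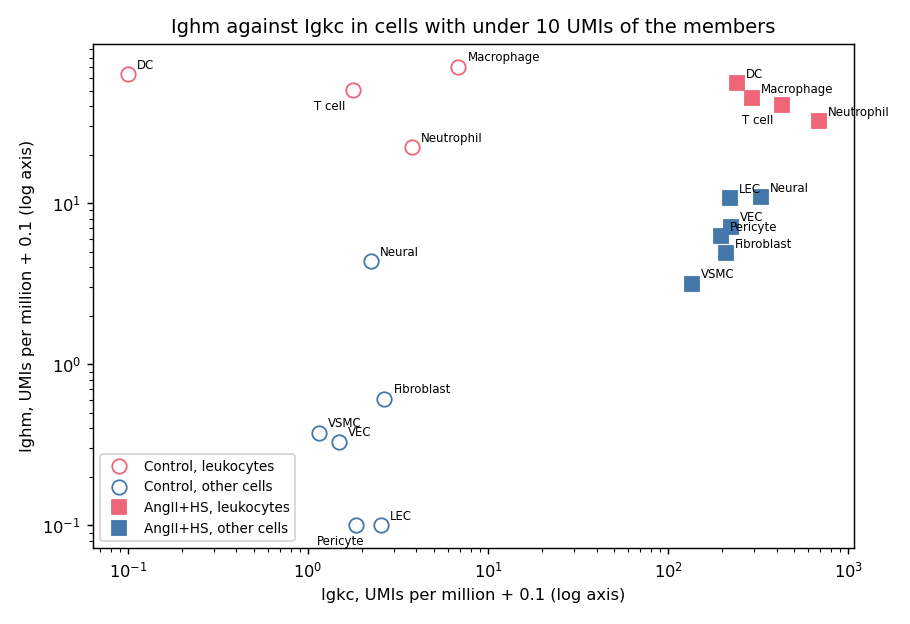
Ighm against Igkc in CPM, both on log axes after adding 0.1 CPM, for each named type other than B and plasma cells, over cells with under 10 UMIs of the members. In both libraries leukocytes (red) lie above the other cells (blue) in Ighm, and the AngII+HS library (filled squares) lies to the right of the Control library (open circles) in Igkc.

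Receptors that bind the constant part of antibodies were read in macrophages, over all of their cells. Fcer1g, the shared signaling chain of activating Fc receptors, was at 1053 CPM in Control (1011 to 1096) and 2430 CPM in AngII+HS (2408 to 2452). Fcgr1, the high-affinity receptor for IgG, was at 47.6 and 136 CPM, and Fcgr4, an activating IgG receptor, was at 20.2 and 110 CPM. All 3 were thus higher in the AngII+HS library. Fcgrt, the neonatal Fc receptor that recycles IgG, was lower there, at 251 and 74.0 CPM, as was Fcgr3 at 253 and 211 CPM. Fcgr2b, the inhibitory receptor, was at 303 and 336 CPM. The macrophages of the 2 libraries were split differently over the same clusters. A cluster led by C1qa held 489 Control and 2456 AngII+HS cells, and one led by Arg1 held 39 and 2058 cells. The part of this split in these differences was not tested. Pigr, which carries IgA across epithelia, had no UMI in macrophages of either library.

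The genes whose levels ran most like Igkc and Ighm over 29 combinations of cell type and library with at least 20 cells were found by Pearson's r of log2(CPM + 1) among 14591 non-Ig genes. For Igkc they were Mzb1 (0.88), Gm30211 (0.85), Cd79a (0.75), Vpreb3 (0.75) and Pafah1b3 (0.73). For Ighm they were Tnfrsf13b (0.91), which encodes the TACI receptor, E330020D12Rik (0.87), Ikzf1 (0.86), the lymphoid transcription factor Ikaros, Cd69 (0.86) and Ly6d (0.86). The points of a library share its free RNA and depth, so these values are a description.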

How the data were processed

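The deposited count matrices hold UMI counts per gene and barcode, which the authors made with Cell Ranger (8.0.1 per the file headers) without normalization. The labels name mm10, while the study's methods name GRCm39 and another Cell Ranger version. Sequences and positions are from GRCm39 with the GENCODE annotation given for this work. The members and lists were chosen with earlier results of these data known. No column of other samples was present.

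Barcodes below 500 UMIs or 200 genes, or with 20% or more mitochondrial UMIs, were left out, doublets were scored with Scrublet (scanpy 1.11.5), and the highest-scoring 0.8% per 1000 cells were removed (1019 in Control and 4826 in AngII+HS). The libraries were integrated with Seurat 5.3.0 on 2000 variable genes and 30 components without Ig genes, and clustered at resolution 0.8, which gave 25 clusters, of which 21 were named. A cluster was named for its best marker list if at least 3 markers were detected in at least 10% of its cells and no other list led its 10 leading genes.

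Named genes are the 10 members, fixed companion lists, the 5 genes most like Igkc and Ighm and the 5 highest and 5 lowest between the 2 largest plasma cell classes. Shares have exact binomial (Clopper-Pearson) and levels exact Poisson 95% intervals. Ratios have conditional exact binomial intervals, and 0.5 UMIs were added for list medians. With 1 library per condition no p-value was computed. The ratios and calls were tested on simulated data. Alternatives were other clusterings, filters, call thresholds, scalings (TMM from edgeR 4.0.16), thinning to 1000 UMIs and subtraction of free RNA. The alternatives without B cells of at least 100 member UMIs and with all deposited barcodes were chosen after seeing the data. Python 3.11.15 was used. Some genes of the companion lists are not reported here.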

Additional observations from a re-analysis of the deposited data

How the results depend on the processing

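No paired analysis was possible because each condition is 1 library. The name plasma cell depends on the clustering. At resolutions 0.4 and 1.2 and without integration, 113, 113 and 111 of the 113 plasma cells fell into 1 cluster of 155 to 159 cells that stayed unnamed, since hemoglobin genes led it beside Mzb1, and class A was 44.1% to 44.4% and class G2c 42.4% to 42.7% of its called AngII+HS cells. With double the doublets removed, 8 of the 113 cells remained and no cluster was named plasma cell, so plasma cell shares and class contrasts could not be given there. Without doublet removal, 14 Control and 456 AngII+HS cells were named plasma cells, and shares of that setting are over this larger set. In its cluster that held 112 of the 113 cells, class A was 35.4% and class G2c 40.0% of the called AngII+HS cells.

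Without doublet removal, class A was 33.0% of plasma cells, Igkc outside B cells and plasma cells was 66.9 CPM in Control and 656 CPM in AngII+HS, the log2 ratios over all cells were 4.29 for Ighm and 6.01 for Igkc, those in B cells were -0.052 for Ighm and 0.43 for Igkc, and those of class A over G2c were 1.98 for Jchain and -3.98 for Slpi. With all deposited barcodes the ratios were 4.30 for Ighm and 6.01 for Igkc. With double the doublets removed, Igkc outside was 363 CPM in AngII+HS, the ratios over all cells were 3.07 for Ighm and 5.78 for Igkc, and that of Igkc in B cells was 2.17. The B cell cluster of that setting took in 7 of the 8 remaining plasma cells, so its ratio is not over the same kind of cells. Igkc outside in AngII+HS, 610 CPM over all cells, was 315 CPM when clustered with the Ig genes, 528 CPM under the stricter filter, 534 and 549 CPM at resolutions 0.4 and 1.2, 544 CPM without integration and 282 CPM without cells of 10 or more member UMIs. Clustering with the Ig genes gave 0.59 for Igkc in B cells, 1.97 for Jchain and -3.89 for Slpi. The Igkc ratio in B cells was also 0.86 after subtraction of free RNA, 0.73 with equal weight per cell, 1.13 with TMM and 0.57 without B cells of 100 or more member UMIs. Equal weight per cell gave 2.80 for Ighm and 6.70 for Igkc over all cells. M/D in AngII+HS B cells was 94.7% with at least 10 UMIs, and kappa 97.0% with at least 50% in 1 class. With no filter on low counts, 25.7% of genes over all cells and 36.1% in B cells were past the ratio upward. The cause of these moves was not tested.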
